A study of Drosophila melanogaster with 3 samples.

Results

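Binding of Sox14 was examined at 9 genes of the Drosophila melanogaster cell death machinery, out of 13945 protein-coding genes on the arms that carry peaks. The 9 are the death activators rpr (reaper), hid, grim and skl (sickle), the inhibitor Diap1, the initiator caspase Dronc, the effector caspases Drice and Dcp-1, and the Dronc activator Dark. They were chosen by name. Every peak summit within the gene span plus 10 kb on each side was taken. The 4 activators, which lie in the same region of arm 3L, were treated as 1 locus of 292198 bp. In the authors' optimal list 56 of 9316 summits fell in the windows of these genes, 31 of them in the 3L locus. For 19 of the 56 the nearest start site of a coding gene was that of 1 of the 9, and 10 lay within 1 kb of such a site. Below, a summit at these genes is a summit in their windows.

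The data are chromatin immunoprecipitation and sequencing (ChIP-seq) of whole animals at the white prepupa stage, when metamorphosis begins, with both sexes pooled. The flies were a transgenic line with GFP fused to the C terminus of Sox14, and an antibody against GFP was used. There was 1 group of 3 biological replicates with 1 library each, from chromatin sonicated to 200 to 800 bp, and no untagged or earlier-stage group, so every comparison is between these genes and the rest of the genome. Each replicate and the pool of replicates had a relaxed list of 30000 peaks, and the optimal list holds the peaks that passed the authors' reproducibility threshold. Each peak carries a signal from the authors' peak caller, which was used to rank peaks within a list, rank 1 being the strongest. Read depth is unknown. A peak is an average over all tissues of the animal, so strong binding in few cells and weak binding in many cannot be told apart. Which gene a bound site regulates is not measured.

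Apoptosis in flies is held in check by Diap1, a ubiquitin ligase that binds and inhibits Dronc, Drice and Dcp-1. The proteins of rpr, hid, grim and skl bind Diap1 and release the caspases, while Dark, the fly homologue of Apaf-1, assembles into the apoptosome that activates Dronc. At metamorphosis pulses of the steroid ecdysone bring about the death of larval tissues such as the midgut and salivary glands, with transcription of rpr and hid under control of the ecdysone receptor and its early response genes. The Sox14 gene is itself induced by ecdysone, and its product, like other Sox proteins, binds short AT-rich words through an HMG box.

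Sequence around the summits on which the results below turn is given from the plus strand of the RefSeq Release 6 genome (dm6), 5′ to 3′. The window is 50 bp on each side of the summit, except where it ran into a UTR and was shortened. Capitals mark a Sox word on either strand, the heptamers AACAAAG and AACAATG or, where there is no heptamer, the hexamers AACAAT and ACAAAG, and a sequence without capitals holds none of them. The first 2 are the strongest summits near the hid promoter, then come the strongest in the 3L locus and its strongest with a heptamer. The next belongs to the only optimal summit at the rpr start site, and is a stretch of 30 bases in the 5′ UTR that holds the heptamer within the 101 bp window but not the summit itself, which lies 13 bp beyond its end at 18398409. It is followed by 3 summits in Diap1 introns, the strongest and those with a heptamer, and by the promoter summits of Dronc and Drice. The other Diap1 intron summits, at 16043478, 16046893 and 16048328, are not shown and held none of the Sox words.
hid promoter, chr3L:18185907-18186007: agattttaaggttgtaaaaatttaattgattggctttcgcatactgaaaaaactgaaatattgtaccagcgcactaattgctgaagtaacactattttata
hid, 5 kb upstream, chr3L:18190623-18190723: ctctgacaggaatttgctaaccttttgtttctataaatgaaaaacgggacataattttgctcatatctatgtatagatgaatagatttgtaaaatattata
hid to grim, strongest, chr3L:18235985-18236085: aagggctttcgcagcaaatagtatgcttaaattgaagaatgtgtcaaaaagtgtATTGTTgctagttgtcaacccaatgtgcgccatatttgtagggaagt
hid to grim, with heptamer, chr3L:18215826-18215926: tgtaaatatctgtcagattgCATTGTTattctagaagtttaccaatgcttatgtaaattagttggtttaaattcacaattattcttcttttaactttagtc
rpr 5′ UTR, chr3L:18398367-18398396: gagttcgttcaCTTTGTTctggtgtctctc
Diap1 intron, strongest, chr3L:16046112-16046212: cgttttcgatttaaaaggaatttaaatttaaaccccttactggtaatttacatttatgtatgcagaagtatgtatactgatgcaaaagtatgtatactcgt
Diap1 intron, summit 16041895, chr3L:16041845-16041945: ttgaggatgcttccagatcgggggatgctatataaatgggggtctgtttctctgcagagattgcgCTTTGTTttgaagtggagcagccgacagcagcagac
Diap1 intron, summit 16043786, chr3L:16043736-16043836: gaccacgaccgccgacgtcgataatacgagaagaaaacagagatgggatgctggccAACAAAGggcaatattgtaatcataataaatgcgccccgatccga
Dronc promoter, chr3L:9968410-9968478: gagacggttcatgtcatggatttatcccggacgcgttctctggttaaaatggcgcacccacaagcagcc
Drice promoter, chr3R:29799594-29799657: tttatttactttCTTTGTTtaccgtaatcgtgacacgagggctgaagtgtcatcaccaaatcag

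Optimal summits lay within 1 kb of a transcription start site (TSS) of 6 of the 9 genes (66.7%, 95% Wilson interval 35.4 to 87.9%), namely hid, rpr, Diap1, Dronc, Drice and Dcp-1. Over all protein-coding genes the share was 33.5%. A promoter summit among the 1000 of highest signal was present at 3 of the 9, hid, Diap1 and Dronc, against 5.64% of coding genes. That of Diap1 lay in an intron, 684 bp from the nearest of its 5 start sites and so outside a 500 bp limit. With the pooled relaxed list, which includes background by design, the count was 8 of 9 against 50.9%, and grim was the gene without one. In the wider window 7 of 9 genes had an optimal summit against 74.4% of coding genes, a share near the background. The median gene of the 9 had 3 optimal summits in its window (range 0 to 10), against 2 (range 0 to 32) for all coding genes, and both medians are for windows of a median 22.2 kb. The 9 genes were chosen with earlier results of these data known, so these counts describe the genes and test nothing.

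**Figure D1:**
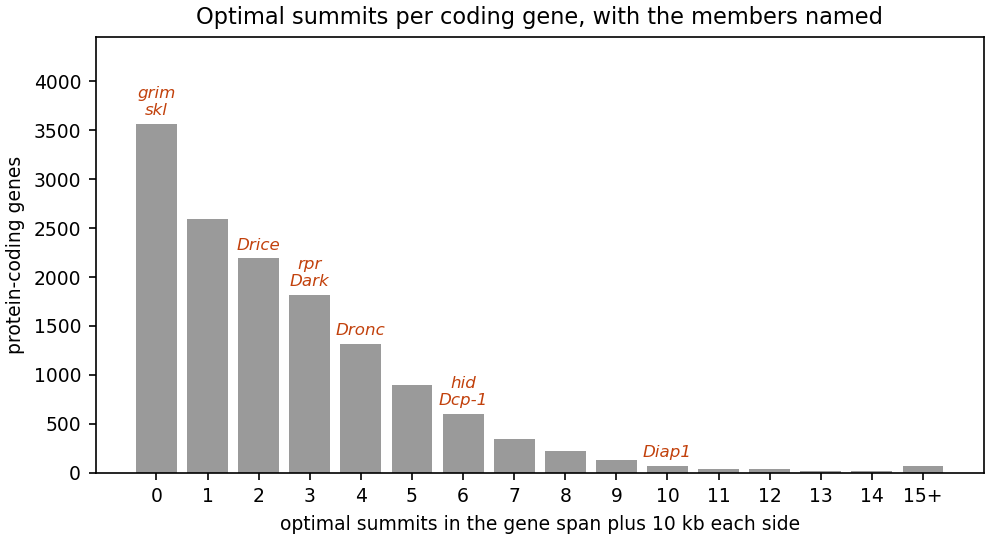
Number of protein-coding genes (vertical axis) by the number of optimal Sox14-GFP summits in the gene span plus 10 kb each side (horizontal axis, with 15 or more in the last bar), and the 9 cell death genes named above the bar that holds them. Diap1 stands out to the right with 10 summits, hid and Dcp-1 have 6 each, and grim and skl have 0. Windows differ in length with the gene, and that of Diap1 is 32625 bp against a median of 22.2 kb.

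In the 3L locus the summits were gathered on the hid side. All 4 activators are transcribed in the same direction, so that the space above hid, up to grim, lies upstream of hid and downstream of grim. That space also holds 4 other coding genes, CG7320, CheA75a, CG5103 and CG13700. This interval of 117 kb held 27 of the 31 optimal summits, or 2.31 per 10 kb against 0.701 over all large arms. The arms were taken at full length, with gaps between neighbouring summits of up to 3102318 bp, which lowers their figure. Within the locus, the 93.1 kb between grim and rpr held 1 optimal summit, the rpr gene 1, and the 40.1 kb between rpr and skl 2. None lay in the gene bodies of hid, grim or skl, or within 10 kb on the outer sides of hid and skl.

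The locus as a whole was not unusual in its number of summits. Of 451 consecutive windows of its length along the large arms, 23.7% held at least its 31 summits, and the median window held 20. Of 1130 consecutive windows of the length of the hid to grim interval, 1.33% held at least its 27 summits, and the median window held 7. That interval was singled out after its values were seen and its edges are those of the genes, while the windows had fixed edges. The windows also cover stretches of the arms without summits, the lowest count being 0. In the 9316 strongest peaks of each replicate the interval held 23, 22 and 21 summits in replicates 1, 2 and 3, and 3.27%, 4.78% and 5.58% of windows held as many. The gap between neighbouring summits there had a median of 2148 bp, against 4046 bp over the large arms. Some summits are close pairs, and with those within 500 bp joined the interval held 24. The strongest peaks shared by a pair of replicates, a smaller set, numbered 16, 18 and 15 there without replicates 1, 2 and 3.

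**Figure D2:**
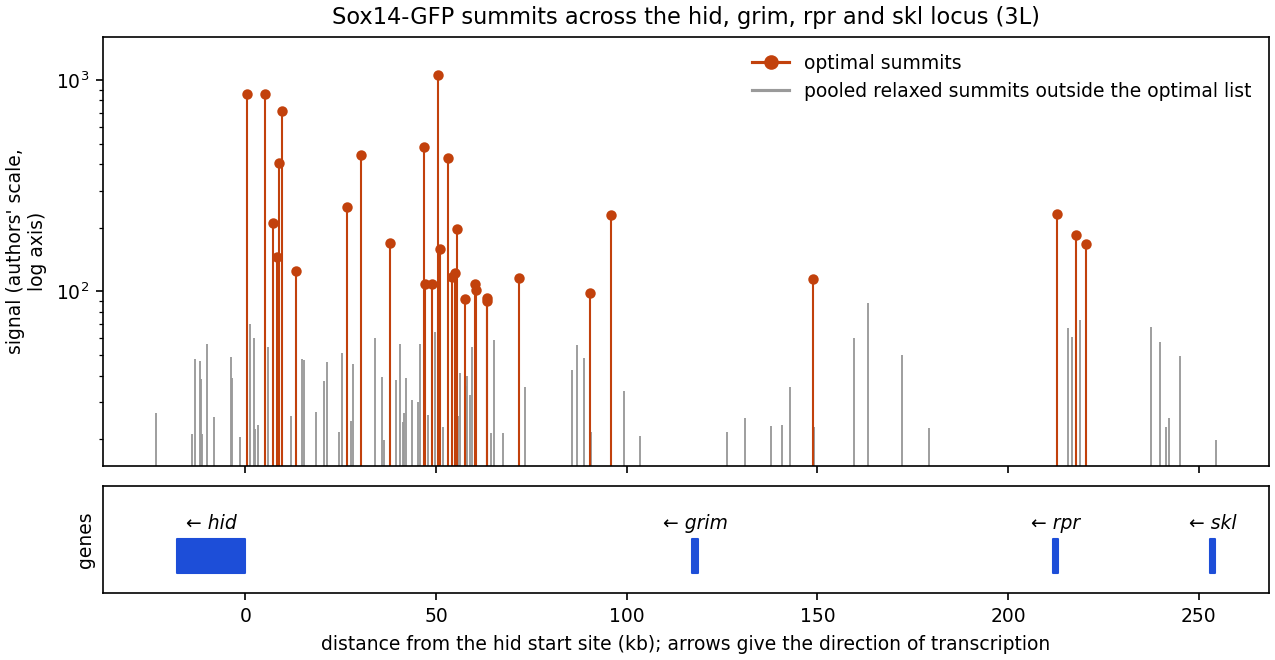
Signal of each Sox14-GFP summit (upper panel, authors' scale, log axis) against its distance from the hid start site in kb. The 4 death activators are drawn below, with rpr widened to be visible, and the other genes of the locus are not drawn. Optimal summits are orange with a dot, and pooled relaxed summits outside the optimal list are grey. The 27 optimal summits between hid and grim end 95.4 kb from the first of them, while grim and skl stand without one.

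At hid (FBgn0003997, 3L 18167745 to 18185641, minus strand), the activator whose product binds and blocks Diap1, the promoter summit lay 316 bp upstream of the TSS at 18185957. Its signal was 859 and its rank 212, with ranks of 194, 287 and 193 in replicates 1, 2 and 3. A summit of nearly the same signal, 856 (rank 218), lay 5032 bp upstream at 18190673 and ranked 241, 181 and 259. No replicate ranked either of these 2 summits below 287, and both lay in intergenic sequence. Further upstream, at 9554 bp, the summit at 18195195 had a signal of 712 (rank 329) and ranked 290, 373 and 365.

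Weaker summits at 18193001, 18193863 and 18194520, from 7360 to 8879 bp upstream, complete the 6 in the hid window, with signals of 210, 145 and 407. The weakest of these ranked 4042 and 3713 in replicates 1 and 3 but 16123 in replicate 2, outside its 9316 strongest. The hid gene body, 17.9 kb long, held 10 pooled relaxed summits and no optimal one. The promoter had no competing gene, since the next coding TSS, that of CG7320, was 15537 bp from the promoter summit.

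The strongest summit of the locus was neither at hid nor at another activator. It lay at 18236035, 50394 bp upstream of the hid TSS, with a signal of 1055 and rank 127, and it ranked 168, 133 and 112 in replicates 1, 2 and 3. Its nearest annotated gene was the long noncoding RNA lncRNA:CR45937, whose TSS was 1275 bp away, and the nearest coding TSS, of CheA75a, was 16053 bp away. Around it, summits at 18232442 (signal 484, rank 769) and 18238753 (426, rank 967) were also among the 1000 strongest, as was 18215876 (441, rank 907), 30235 bp upstream of hid. In all 7 of the 31 summits of the locus were in the top 1000 (22.6%), against 10.7% of all optimal summits.

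The other summits between hid and grim were weaker, with signals from 90.3 to 252 against a lowest optimal signal of 89.8. The last before grim, at 18281405, had a signal of 229 and lay 23012 bp downstream of the grim TSS. For 17 of the 27 the nearest gene was a long noncoding RNA, for 2 it was hid, and for 8 another coding gene. By coding TSS alone, CheA75a was nearest to 15 summits of the locus, CG7320 to 7, hid and rpr to 3 each, CG5103 to 2 and grim to 1. Assignment by distance therefore gives hid only 3 of the 27 summits.

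At rpr (FBgn0011706, 3L 18397535 to 18398435, minus strand), whose product binds Diap1 and brings about its degradation, the promoter summit at 18398409 lay in the 5′ UTR, 26 bp downstream of the TSS. It had a signal of 232 and rank 2750, and it ranked 5731, 2199 and 1832 in replicates 1, 2 and 3. It was thus within the top 9316 of every replicate but lower in replicate 1. Upstream summits at 18403372 (4937 bp, signal 185, rank 3928) and 18406119 (7684 bp, signal 168, rank 4433) were also in the top 9316 of all 3. The rpr signals were all below those of the hid promoter, within the same list.

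For grim (FBgn0015946, 3L 18302719 to 18304417), another Diap1-binding activator, no replicate had a single relaxed summit in the gene span plus 10 kb, which was so for 3.15% of coding genes. The pooled list had 1 there, at 18311853, with a signal of 21.6 and rank 28332. The optimal summit for which grim is the nearest coding gene, at 18334432 (signal 114, rank 7199), lay 30015 bp upstream. At skl (FBgn0036786, 3L 18438561 to 18439942), the fourth activator, there was no optimal summit, and replicates 1, 2 and 3 had 3, 0 and 4 relaxed ones. The pooled list had 2, of which the stronger, at 18430816, had a signal of 49.6 and rank 15557. A gene without a listed peak may still be bound below the threshold of the lists.

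Diap1 (FBgn0260635, 3L 16038410 to 16051034, minus strand), the inhibitor on which the activators act, had 10 optimal summits in its window, more than 98.2% of coding genes. That rank is by count and is not adjusted for length. The window was 32625 bp long, against a median of 22.2 kb over coding genes. It held 3.07 summits per 10 kb, against a median of 0.82. Diap1 has 5 annotated start sites, and 4 of the summits lay within 1 kb of one of them. The strongest, at 16046162 in an intron 684 bp downstream of a start site, had a signal of 713 and rank 328, and it ranked 299, 242 and 558 in replicates 1, 2 and 3. The next, at 16048328 in an intron, had a signal of 294 (rank 1857) and ranked 1676, 1684 and 2789. No replicate ranked either of them below 2789.

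Intronic summits of lower signal lay at 16041895 (194), 16043478 (121), 16043786 (123) and 16046893 (103), and 1 summit lay just past the 3′ end of the gene at 16038121 (268). The summit at 16043478 was found in the relaxed list of replicate 2 alone. The summits at 16041895 and 16048328 were nearer to the start of a noncoding RNA than to one of Diap1, 500 bp from asRNA:CR45889 and 907 bp from lncRNA:CR43951. The other 3 of the 10 were nearer to the TSS of another coding gene. They were 16037181 (signal 252) in the 3′ UTR of CG5895, and 16052806 (157) and 16054302 (115) in the 5′ UTR and an intron of Mbs, the myosin phosphatase targeting subunit. No optimal summit lay at the most upstream start site of Diap1, where the strongest relaxed one, at 16050926, had a signal of 67.7.

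**Figure D3:**
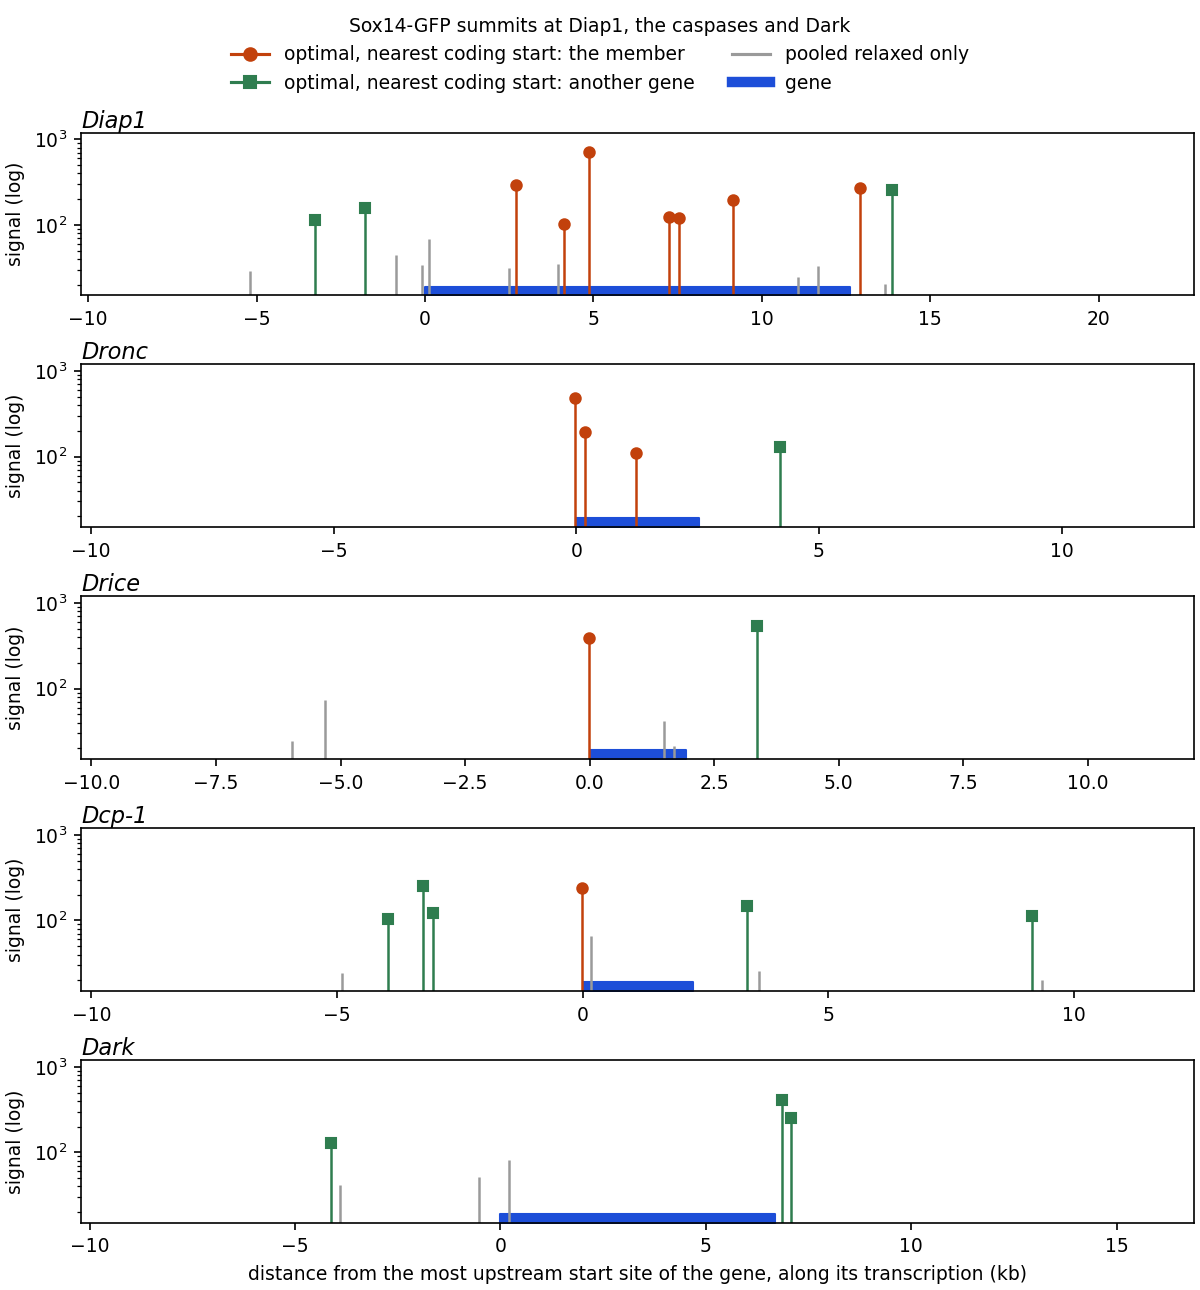
Signal of each Sox14-GFP summit (authors' scale, log axis) against its distance in kb from the most upstream start site of Diap1, Dronc, Drice, Dcp-1 and Dark, read along transcription, with the gene as a blue bar. Orange circles are optimal summits nearest to a start site of the named gene, green squares optimal summits nearest to another coding gene, and grey lines pooled relaxed summits outside the optimal list. The caspase genes have a summit at the start site, and Dark has its optimal summits only at the neighbouring genes.

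At Dronc (FBgn0026404, 3L 9968479 to 9971002, plus strand), the initiator caspase, the promoter summit at 9968460 lay 19 bp upstream of the TSS. It had a signal of 488 and rank 760, with ranks of 745, 752 and 808 in replicates 1, 2 and 3, among the closest agreements at these genes. The TSS of CG6685 was 143 bp from the same summit, so the peak lies at both promoters. A second summit at 9968666 in the 5′ UTR had a signal of 193 (rank 3705), and one at 9969706 in an intron had 110. The remaining summit in the window, at 9972685 (131), lay 71 bp from the TSS of CG42455.

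At Drice (FBgn0019972, 3R 29799658 to 29801584, plus strand), the main effector caspase, the promoter summit at 29799644 lay 14 bp upstream of the TSS, with a signal of 394 and rank 1115. It ranked 1057, 1986 and 919 in replicates 1, 2 and 3, and the TSS of Rnb was 290 bp away. The other optimal summit in the window, at 29803009, was stronger, with a signal of 545 and rank 614, and lay 64 bp from the TSS of Etfb, the beta subunit of the electron transfer flavoprotein. CG6685, Rnb and, at Dcp-1, pita were named as sharing a promoter summit after their distances were seen.

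At Dcp-1 (FBgn0010501, 2R 23551313 to 23553547, plus strand), the other effector caspase, the promoter summit at 23551289 lay 24 bp upstream of the TSS, in the 5′ UTR of the overlapping gene pita, which has a TSS 262 bp away. It had a signal of 237 and rank 2658, and it ranked 2545, 3847 and 2505 in replicates 1, 2 and 3. The other 5 summits in the window were nearer to other genes. They lay at 23547356 and 23548067 near wmd (signals 105 and 252), at 23548267 near levy, a cytochrome c oxidase subunit (121), at 23554665 near pita, a zinc finger protein (147), and at 23560454 near Pi3K59F, a lipid kinase of autophagy (113).

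Dark (FBgn0263864, 2R 17020027 to 17026703, plus strand) had no optimal summit at its promoter. The strongest relaxed one, at 17020236, had a pooled signal of 81.9 and rank 10176, just below the 9316 of the optimal list, and the promoter's best ranks were 10330, 6315 and 10694 in replicates 1, 2 and 3. The promoter therefore had a summit in the top 9316 of replicate 2 alone. The 3 optimal summits of the window belonged by distance to neighbours. That at 17015891 (signal 127) lay 3 bp from the TSS of Ehbp1, and those at 17026892 (410, rank 1037) and 17027103 (250, rank 2455) lay 298 and 87 bp from that of RhoGEF2, an activator of the GTPase Rho1, with asRNA:CR44390 nearer still to the first.

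Agreement between replicates at these genes was that of the list as a whole. Of the 56 summits 47 (83.9%, Wilson interval 72.2 to 91.3%) had a summit within 100 bp in all 3 relaxed lists, against 86.9% of all optimal summits. In the 9316 strongest peaks of all 3 replicates were 33 of 56 (58.9%, 45.9 to 70.8%), against 58.6%. The optimal peaks, which passed the authors' reproducibility threshold, are also the 9316 of highest signal in the pool of these replicates, so the lists compared are not independent. The summits missing from a replicate were all weak, with the first of them at rank 5295 of the optimal list, at 23554665.

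**Figure D4:**
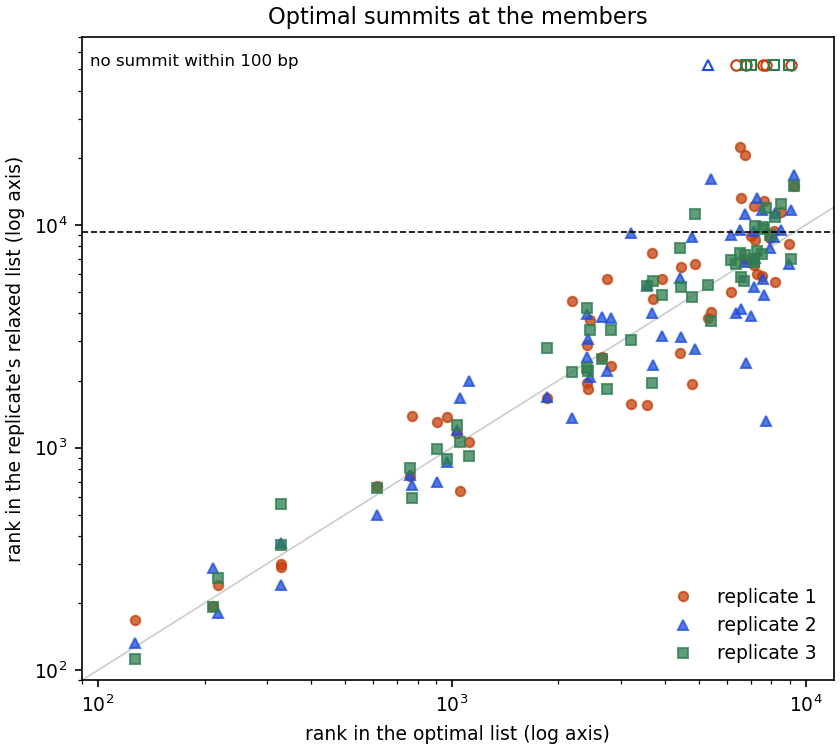
Rank of each of the 56 optimal summits at the cell death genes in the optimal list (horizontal, log axis) against its rank in each replicate's relaxed list (vertical, log axis). Open symbols at the top have no summit within 100 bp in that replicate, the dashed line marks rank 9316, and the grey line marks equal rank. The strong summits lie near the line of equal rank in all 3 replicates, and the weak ones scatter on both sides of it.

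The position of summits relative to genes differed between the locus and the other 5 genes. Summits within 500 bp of the TSS of any gene were set apart first, so those called intergenic here exclude them. In the 3L locus 27 of 31 optimal summits (87.1%, Wilson interval 71.1 to 94.9%) were intergenic, and 4 (12.9%) lay within 500 bp of the TSS of any gene. At Diap1, the caspases and Dark 1 of 25 (4%) was intergenic and 15 (60%, 40.7 to 76.6%) lay within 500 bp of a TSS of any gene. Many of these were start sites of neighbours, such as wmd, levy and Etfb. Of the 56 summits in all windows, 19 lay within 500 bp of a TSS of any gene. Only 7 lay within 500 bp of a TSS of a cell death gene. The 60% is therefore not a share of summits at the promoters of Diap1, the caspases and Dark. Over all optimal summits 14.4% were intergenic and 43.8% lay near a TSS. The long intergenic stretches of the locus and the short genes at the other windows differ in how much sequence of each kind they hold, and the part of this in the shares was not tested.

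**Figure D5:**
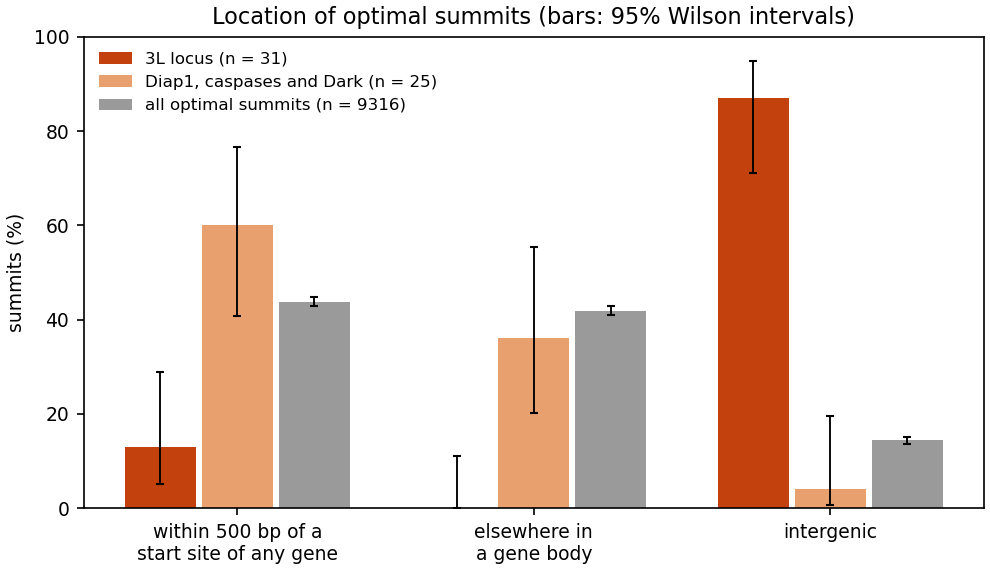
Share of optimal summits (vertical axis, percent) within 500 bp of a start site of any gene, elsewhere in a gene body, or intergenic, in the 3L locus, at Diap1, the caspases and Dark, and over all optimal summits, with 95% Wilson intervals that cover the counting of summits only. Summits outside genes but within 500 bp of a start site are in the first class only. Counted so, the locus is 87.1% intergenic, the other genes 4% and the whole list 14.4%.

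A Sox heptamer lay within 50 bp of 11 of the 56 summits (19.6%, Wilson interval 11.3 to 31.8%), against 8.61% of all optimal summits in windows of the same 101 bp. In windows 1000 bp to the left and right of the same summits the shares were 5.36% and 3.57%, against 5.6% and 4.95% for the whole list. AACAAAG was in 8 windows (14.3% against 6.39%) and AACAATG in 4 (7.14% against 2.51%), with both in 1. The 12 heptamers had their centres a median 19.5 bp from the summit (range 7 to 43 bp). A match is a word in the sequence and is not evidence of a bound site.

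By window, the heptamers were at 4 of the 10 Diap1 summits and 4 of the 31 of the locus. The windows of Drice, Dcp-1, Dark and Dronc had 1 of 2, 1 of 6, 1 of 3 and 0 of 4. In the Dcp-1 window the heptamer was at the summit 38 bp from the TSS of Pi3K59F. In the Dark window it was at the summit 87 bp from the TSS of RhoGEF2. Of the Diap1 window's summits with a heptamer, that at 16052806 lay in the 5′ UTR of Mbs. The rpr and Drice promoter summits each had the reverse strand of AACAAAG, 28 and 35 bp from the summit. Neither of the 2 strongest hid summits nor the strongest Diap1 and Dronc summits held a heptamer or hexamer in the sequence shown, and the strongest summit of the locus held a hexamer alone. The locus was also richer in A and T, with a median GC content of 28.7% around its summits, against 40.6% at the other 5 genes and 34.7% over the list.

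Of 3 other promoter words sought on both strands, the DNA replication-related element TATCGATA was at 1 summit (1.79% against 1.73% of all optimal summits). GAGAGAG and GGTCACACT, the words of GAGA factor and M1BP, were at 0 of 56, against 2.57% and 1.18%, and a count of 0 among 56 has a Wilson upper bound of 6.42%.

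Beyond the 9 genes, 22 others of the death pathway were examined, and 15 of them (68.2%) had an optimal promoter summit by the same 1 kb limit, against 33.5% of all coding genes. By role these were 3 of 4 other caspases, 0 of 2 other inhibitors (Diap2 and Bruce) and 1 of 2 Bcl-2 family genes. They also included 3 of 3 genes of mitochondrial proteins and 3 of 5 in a group of death receptor signalling genes. Tango7 (eIF3m) was placed in that last group for the count, and it was among those with a promoter summit. The p53 axis had 2 of 3, and the clearance of dying cells 3 of 3. The 2 with a promoter summit in the top 1000, which 5.64% of coding genes had, were the neighbouring cytochrome c genes. Cyt-c-d had a signal of 822 and rank 233 (190, 225 and 342 in replicates 1, 2 and 3), and Cyt-c-p 543 and rank 618 (584, 640 and 747). The Cyt-c-d summit lay 388 bp from the TSS, and that of Cyt-c-p 974 bp, close to the 1 kb limit. Damm, a caspase, and wgn, a receptor for the ligand Eiger, had no optimal summit in the gene span plus 10 kb.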

How the data were processed

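The authors deposited peak lists for 3 replicates, for their pool and, filtered by irreproducible discovery rate (IDR), an optimal list. A control file entered the authors' calls, per the deposited text descriptions. The IDR cutoff, the peak caller and the aligner are not given in the sources used. Each peak has a signal from the authors' caller and a deposited −log10 q value. Signal scales differ between lists, so ranks were used across lists. In dm6 the 9316 optimal peaks were exactly the strongest 9316 of the pooled list, and 45.6% of pooled peaks had a q value under 0.01. Lists on dm3 were not used. The fixed length of 30000 peaks says nothing of a replicate's yield, and depth is unknown.

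Summits were placed on Ensembl release 115 genes (BDGP6.54) and RefSeq Release 6 sequence with Python 3.11.15. Promoters were within 1 kb of a TSS, shared summits within 100 bp, and motif windows 101 bp. Wilson intervals (SciPy 1.17.1) cover counting error of peaks or genes and nothing else. With 1 group no test was run. The lookups and word search were checked on planted data. All 9 genes were named with every optimal summit near them, apart from the weaker ones between hid and grim, which are summarised. Of the 22 others, those with a top 1000 promoter summit or no summit were named, and a neighbour where its TSS was nearer. Of the 22, Tango7 was found under its synonym eIF3m. The genes, the lists and this rule were chosen with earlier results of these data known. Alternatives covered promoter distance, flank, peak set, each replicate left out, shared distance, number of top peaks, motif and its window.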

Additional observations from a re-analysis of the deposited data

How the results depend on the processing

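Of 70 alternatives over 9 results, 47 stayed within 1.5 times the count or within the Wilson interval of the share, and 23 did not. The 6 genes with a promoter summit were 6 or 7 under every alternative run, including each replicate left out (6 to 6), while the share of all coding genes with one, 33.5% in the report, was 29.6% within 500 bp, 55% within 5 kb, 20.6% with the 4658 strongest optimal peaks, 40.3% at a pooled q under 0.01, 22.9% with summits in the top of all 3 replicates and 24.4% to 28.3% with a replicate left out. Genes with a summit in the window were 3 with the gene span only, against 18.6% of coding genes there and 74.4% with the flanks, since the promoter summits of hid, Drice and Dcp-1 and the summits in the Dark window lie outside the genes. Using the 4658 strongest optimal peaks, or only summits in the top peaks of all 3 replicates, shortened the lists and gave 29 and 33 summits at the 9 genes, 16 and 18 in the 3L locus, and 13 and 15 between hid and grim. The 4658 strongest gave a promoter summit at 9 of the 22 other pathway genes, against 20.6% of coding genes. Leaving out 1 replicate each, by the top peaks shared by the other pair, gave 34 to 40 summits at the 9 genes, 19 to 21 in the locus and 15 to 18 from hid to grim. Those sets held 6045 to 6771 peaks in place of 9316, so the lower counts cannot be laid to the replicate alone, and they passed 1.5 times without replicate 1 or 3. The share of windows with as many summits as hid to grim was then 2.83% to 5.84%, against 4.25% with the 4658 strongest, 3.1% with summits in the top of all 3, 3.19% at a pooled q under 0.01 and 1.77% with close summits joined. The hid to grim alternatives were chosen after seeing the data.

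Summits found in every replicate were 51.8% within 50 bp and 92.9% within 200 bp. Summits among the top peaks of every replicate were 39.3% within 50 bp, 37.5% with 4658 top peaks and 80.4% with 18632. Sox heptamers were at 3.57% and 5.36% in windows 1000 bp to the right and left, AACAATG alone was at 7.14%, and the hexamers were at 32.1%. No paired analysis was possible because there is 1 group. Without read counts, an unlisted site such as those of grim and skl cannot be given an upper limit.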
